A study of Mus musculus with 28 samples.

Results

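Smchd1 is a noncanonical member of the SMC family of chromosome proteins, and this account describes the places in the mouse genome where it was mapped next to Ctcf. In neural stem cells, 418 of 1105 wild-type Smchd1 peak summits on assembled chromosomes (37.8%, 95% interval 35.0 to 40.8) lay within 1 kb of a summit of Ctcf in wild-type cells. These 418 sites were chosen by the wild-type Smchd1 list called at 0.005 and by 2 wild-type Ctcf lists called at 0.0005, so the presence of both proteins is how the sites were selected and is not a result. A summit is the single base at which a called peak is highest, and its score is the authors' own −log10 value, of a p or of a q (the sources used here do not say which). Scores rank summits within a list only, since lists were called against different controls and depths.

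All cells were neural stem cells grown from male mouse brain at E14.5 of embryonic development, of strain C57BL/6 x FVB/N. Wild-type cells were compared with cells homozygous for MommeD1, a null allele of Smchd1, with 2 libraries per genotype for each ChIP of Smchd1, H3K4me3 and H3K27me3, 3 per genotype for methylated DNA pulled down with the methyl-CpG binding part of MBD2 (MBD), and 1 input of whole cell extract for each genotype. Ctcf was mapped in untransduced wild-type cells, in wild-type cells transduced with a non-silencing short hairpin RNA and in null cells (2 libraries each). Every Ctcf list was called against the same control, Ctcf ChIP from wild-type cells transduced with either of 2 Ctcf hairpins, the Smchd1 list against Smchd1 ChIP in null cells, and the marks and MBD against whole cell extract. Each list pools the libraries of its group, so no value exists per library, no test across samples was possible, and the labels do not say whether the libraries of a group came from separate cultures or embryos. Intervals below are exact binomial (Clopper-Pearson) 95% intervals, which cover counting error only and treat neighbouring summits as independent.

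Ctcf is a zinc finger protein that binds a long, directional DNA motif, blocks loops extruded by cohesin and so sets the borders of chromatin domains. Smchd1 helps to keep genes silent on the inactive X and at some autosomal clusters, among them clustered protocadherins and imprinted genes. H3K4me3 marks active or poised promoters, H3K27me3 is laid down by Polycomb repressive complex and marks silent developmental genes, and MBD capture enriches DNA dense in methylated CpG. The label of the cells was set beside marker promoters: 15 of 16 neural stem cell genes had wild-type H3K4me3 within 2 kb of an annotated end (Msi1 did not), beside 9 of 13 neuron, 3 of 12 glia, 1 of 10 microglia and blood and 2 of 11 endothelium and mesenchyme markers. Housekeeping genes had it at 13 of 14. No share over all genes is given here, so these counts do not prove the identity of the cells.

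The sequences at the sites were read where a summit fell in a promoter window, which runs from 250 bases before to 50 bases after an annotated RNA start (RefSeq, GRCm38.p6, the mm10 assembly). Of the 418 sites, 33 lay in 34 such windows. The Ctcf core searched on both strands has 12 letters, of which 8 are fixed: C, C and A, any 2 letters, A and G, any 2 letters, then G, G and C. It stood in 8 of the 34 windows (23.5%, 10.7 to 41.2), against 2.43% of all 32815 windows. Windows with a wild-type Ctcf summit and no Smchd1 held it in 18.3% (179 of 978, 15.9 to 20.9), a share inside the interval of the shared windows, and windows with Smchd1 and no shared site in 1.15% (1 of 87, 0.0291 to 6.24). The shared windows were chosen by their Smchd1 summit, and in some the Ctcf summit lay outside the window, so the 2 kinds are not fully alike. With up to 1 mismatch the core stood in 76.5% of the shared windows, 69.6% of the windows with Ctcf alone, 34.5% of those with Smchd1 alone and 30.6% of all windows. A match is a description of the letters and does not show that Ctcf binds them, and 1 mismatch is common in any window.

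Below are 6 of the 8 exact matches, those whose core is centred within 50 bp of the Smchd1 summit, and for comparison 2 windows with the core at 1 mismatch that lie at developmental genes. The remaining exact matches lay 54 bp (Gm9222) and 110 bp (Cpne4) from the summit. Each is printed 5′ to 3′ in the direction of the core, with the 12 letters at the core in capitals. C330018A13Rik is at chr5:116123495-116123554 on the plus strand, Tbx3os2 at chr5:119691300-119691359 on the minus strand, Mtus2 at chr5:147957204-147957263 on the plus strand and Samd9l at chr6:3399586-3399645 on the minus strand. Rpl38 is at chr11:114668434-114668493 on the plus strand, Spef2 at chr15:9748934-9748993 on the minus strand, Foxd2 at chr4:114908969-114909028 on the minus strand and Hoxa5 at chr6:52204635-52204694 on the minus strand. The first 6 are exact and the last 2, Foxd2 and Hoxa5, differ from the core at 1 fixed letter.
C330018A13Rik: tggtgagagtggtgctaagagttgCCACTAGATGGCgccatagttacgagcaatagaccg
Tbx3os2: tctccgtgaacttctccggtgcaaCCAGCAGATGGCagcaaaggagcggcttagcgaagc
Mtus2: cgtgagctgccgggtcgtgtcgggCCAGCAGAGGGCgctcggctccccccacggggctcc
Samd9l: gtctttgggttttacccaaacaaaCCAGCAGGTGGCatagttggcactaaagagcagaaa
Rpl38: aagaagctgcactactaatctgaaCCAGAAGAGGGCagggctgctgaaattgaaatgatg
Spef2: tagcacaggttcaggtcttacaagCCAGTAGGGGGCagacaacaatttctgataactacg
Foxd2: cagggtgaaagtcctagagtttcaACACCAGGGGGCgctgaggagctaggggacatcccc
Hoxa5: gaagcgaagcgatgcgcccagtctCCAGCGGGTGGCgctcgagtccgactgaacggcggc

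In these 8 promoters the core was centred within 16 bp of the Smchd1 summit and within 52 bp of the Ctcf summit. At Mtus2, which encodes a microtubule-associated protein, the core was centred 3 bp from the Smchd1 summit and 0 bp from the Ctcf summit. At Tbx3os2, an RNA gene beside the limb and heart transcription factor Tbx3, both summits fell on the same base, 11 bp from the core. At Foxd2, a forkhead transcription factor, the distances were 1 bp and 7 bp, and at Hoxa5 12 bp and 47 bp. Over the 8 exact matches the median distance was 12 bp to the Smchd1 summit (2 to 110) and 39 bp to the Ctcf summit (0 to 186).

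At the shared sites the summits of both proteins nearly coincided. The nearest wild-type Ctcf summit lay at a median of 19 bp from the Smchd1 summit, although the rule allowed 1 kb. It was on the same base at 9 sites, within 25 bp at 243 (58.1%), within 50 bp at 326 (78.0%, 73.7 to 81.9) and within 250 bp at 390 (93.3%). These shares are of the 418 sites, and the 326 were 29.5% of all 1105 Smchd1 summits. The Ctcf summit was at the lower coordinate at 210 sites and at the higher at 199, with a median offset of -1 bp. Measured to each list alone, the median distance was 24 bp over the 202 sites with an untransduced Ctcf summit and 25 bp over the 403 with a non-silencing one.

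**Figure D1:**
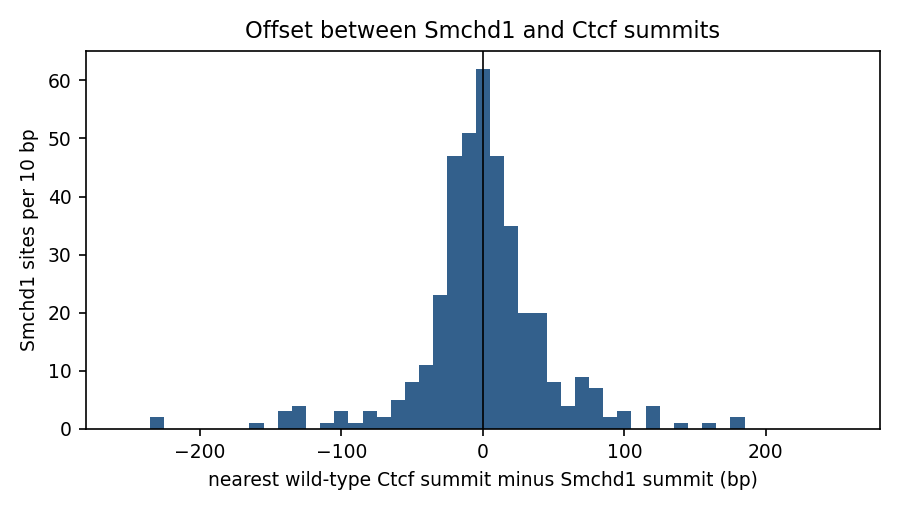
Number of Smchd1 sites per 10 bp of offset between the nearest wild-type Ctcf summit and the Smchd1 summit (x axis, bp), for the 390 sites within 250 bp. The counts are highest around 0, with 326 of the 418 sites within 50 bp.

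Few sites depended on the 1 kb limit. The sites just inside it lay near Tut7 (884 bp), Hoxa5 (893 bp), Hoxb8 (908 bp), Gadd45b (909 bp) and Vav1 (975 bp), and the Smchd1 summits just outside included those near Cyth4 (1004 bp), Rbfox3 (1086 bp), Hoxc10 (1147 bp) and Pcdh8 (1316 bp). Between 1 and 2 kb there were 27 more Smchd1 summits. The Hoxa5 and Hoxb8 sites near the limit each lie within 1 kb of another shared site that is closer to the same Ctcf summit.

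Both wild-type Ctcf lists had a summit at 187 of the 418 sites, the non-silencing list alone at 216 and the untransduced list alone at 15. The non-silencing list is longer (20483 summits) than the untransduced list (8292), and whether list length or the hairpin has a part in this split was not tested. Of the 418 sites, 172 were also on the same base of the Smchd1 list called at 0.0005 (41.1%), beside 206 of the 687 Smchd1 summits without wild-type Ctcf (30.0%).

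Shared sites held most of the highest Smchd1 scores. Their median Smchd1 score was 4.97 (quartiles 3.76 and 6.99), against 3.76 for the 295 Smchd1 summits with wild-type H3K4me3 and no Ctcf and 4.43 for the 392 with neither. Scores of at least 10 were reached by 40 shared sites, 9 summits with H3K4me3 and no Ctcf and 22 with neither. From the lowest to the highest quintile of all Smchd1 summits by score, the shared part was 25.3%, 29.9%, 38.5%, 42.1% and 53.4% of 221 summits each. The Smchd1 score is part of the list that chose the sites, so these values are a description.

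The Smchd1 and Ctcf scores of the sites showed little or no relation. Over the 403 sites with a non-silencing Ctcf summit, Smchd1 score and Ctcf score had Pearson's r of 0.104 and Spearman's rho of 0.0117, a description over summits of the same pooled libraries. Ctcf summits near Smchd1 had somewhat higher scores than the others, and the top score decile held the largest share with Smchd1 (3.27% of the non-silencing and 3.61% of the untransduced summits in it). In the non-silencing list the 393 summits with Smchd1 within 1 kb had a median score of 10.8 (quartiles 8.29 and 14.7), and the 20090 others 9.92 (7.57 and 13.5). In the untransduced list the medians were 9.26 (196 summits) and 8.68 (8096), and in the null list 10.2 (303) and 8.28 (11617).

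**Figure D2:**
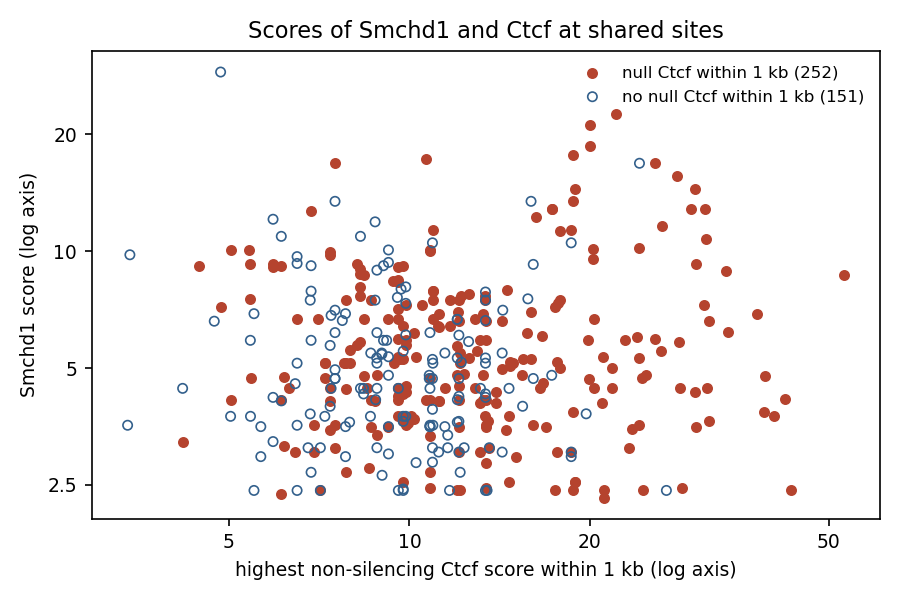
Smchd1 score (y, log axis) against the highest non-silencing Ctcf score within 1 kb (x, log axis) at 403 shared sites, with filled points where a null Ctcf summit lay within 1 kb (252) and open points where none did (151). High and low Smchd1 scores occur across the Ctcf range, and open points are sparse at the highest Ctcf scores.

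The 20 sites with the highest Smchd1 scores fall at genes of varied function. The highest was inside Mid1, a microtubule-associated ubiquitin ligase, at X position 169987103, with a Smchd1 score of 29.0, a non-silencing Ctcf score of 4.84 and no untransduced or null Ctcf summit. Mid1 spans the border of the region that X and Y share in mice, so reads there cannot be placed on 1 of these chromosomes with certainty, and the same holds for the site near Gm52481 on Y (position 90829059, Smchd1 score 21.1). The second, 53478 bp from A26c2 on chromosome 7 at 62877221, scored 22.6 for Smchd1, 22.1 for non-silencing Ctcf and 13.6 for null Ctcf.

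Next came a site 2390 bp from the interferon gene Ifna13 (Smchd1 score 18.6), which had wild-type Ctcf in both lists (6.86 untransduced, 20.0 non-silencing), null Ctcf (17.3) and H3K4me3 in both genotypes (20.3 wild type, 13.6 null). A site 4314 bp from Snai2, a zinc finger repressor of the neural crest, scored 17.7 with untransduced, non-silencing and null Ctcf scores of 10.3, 18.8 and 12.99. The Hoxa9 site (17.3) and the Hoxd3 site (16.9) belong to the Hox clusters described below. The Mtus2 promoter (16.9) carried Ctcf in all lists (13.4, 25.6 and 20.2) and H3K4me3 in wild-type (10.3) and null cells (22.8).

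A site 138415 bp from Parp8, which encodes a member of the ADP-ribosyltransferase family, scored 16.9 for Smchd1 with wild-type Ctcf of 16.8 and 24.2, and no null Ctcf summit within 1 kb. The site 7239 bp from Caln1, a calcium-binding protein of neurons (Smchd1 15.6), had Ctcf in all lists, with 24.1 and 27.9 in wild type and 31.0 in null cells. Others of the 20 were nearest to Gpat3 (14.51), Nrxn3 (14.49), Hoxb9, Hoxc8 and Snrpn (13.5 each), Nr2f2 and Gm15097 (12.9 each), Olfm4 (12.8) and Cpne4 (12.7). Of the 20, 16 had a null Ctcf summit within 1 kb, all but Mid1, Parp8, Hoxb9 and Hoxc8. Nearest means nearest along the chromosome only: Snrpn was 278339 bp away.

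Most sites had a called Ctcf summit also in cells without Smchd1. A null Ctcf summit lay within 1 kb of 261 of the 418 sites (62.4%, 57.6 to 67.1), against 28.1% of all Smchd1 summits and 7.28% of the 687 without wild-type Ctcf. Its median distance from the Smchd1 summit was 22 bp. The rule chose the 418 sites for wild-type Ctcf and left the 687 without it, so the difference from other Smchd1 summits is not a result. Of all wild-type Ctcf summits, 44.7% of the non-silencing list and 61.7% of the untransduced list had a null summit within 1 kb. Null and wild-type Ctcf lists share their control libraries, and a summit missing from a list may be under its threshold, so these overlaps are given as a description and do not show gain or loss of Ctcf.

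The share with null Ctcf followed how many wild-type lists held the site. It was 79.7% (149 of 187) where both wild-type lists had a summit, 47.7% (103 of 216) in the non-silencing list alone and 9 of 15 in the untransduced list alone. For non-silencing Ctcf summits without Smchd1 the values were 66.9% of 7083 also in the untransduced list and 32.1% of 13007 that were not. The side-by-side values were thus higher with Smchd1 for both kinds, but those with Smchd1 count Smchd1 summits and the others count Ctcf summits.

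The same order held at each height of the Ctcf peak. In the non-silencing list, 63.1% of the 393 Ctcf summits with Smchd1 within 1 kb had null Ctcf, beside 44.4% of the 20090 without. In the lowest decile of that list by score the shares were 45.2% of 31 and 23.6%, and in the highest decile 91.0% of 67 and 78.9%. In the untransduced list they were 78.1% of 196 and 61.3% of 8096. The share was higher with Smchd1 in 10 of 10 deciles of each list, although the intervals overlapped in 7 of 10 deciles of the non-silencing and in 10 of 10 of the untransduced list, and both lists share their control. Whether library depth or the way summits were called has a part in this was not tested.

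**Figure D3:**
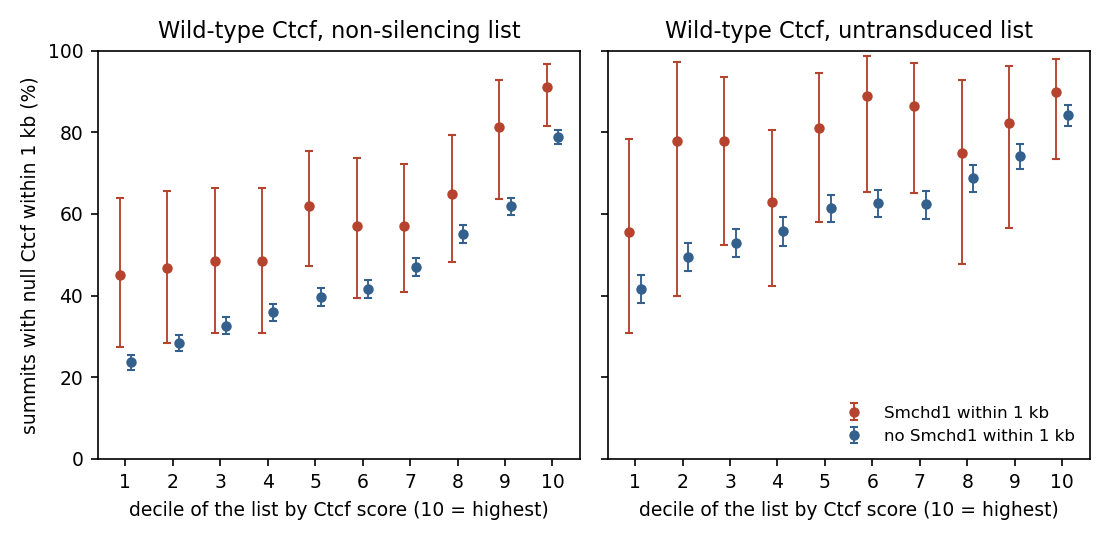
Share of wild-type Ctcf summits with a null Ctcf summit within 1 kb (y, %), by decile of the Ctcf score (x, 10 the highest), with Smchd1 within 1 kb (red) and without (blue), in the non-silencing list (left) and the untransduced list (right). Bars are exact 95% intervals, and the red point is above the blue point in 10 of 10 deciles of each list.

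The 157 sites without null Ctcf had lower wild-type Ctcf peaks, with a median non-silencing score of 9.55 against 12.1 at the 261 sites with it. Their Smchd1 scores differed less (median 4.70 and 5.15), as did their shares with wild-type H3K4me3 (23.6% and 29.1%) and at coding gene ends (22.3% and 23.4%). The highest in Smchd1 score, beside Mid1, Parp8, Hoxb9 and Hoxc8, were near Tbx3 (12.1), Cxcl12 (11.9), Gm36079 and Nkx6-1 (10.9 each), and Hoxb8 and Hoxa3 (10.5 each). Cxcl12 encodes a chemokine, and Tbx3, Nkx6-1 and the 4 Hox genes encode transcription factors that pattern the embryo.

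Among the sites with the highest wild-type Ctcf scores, 10 of 10 had null Ctcf. In the top decile of the non-silencing list the share was 91.0% of 67 summits with Smchd1 and 78.9% of 1982 without. That decile starts at a score of 18.0 and the 10 sites at 33.7, so these shares are not matched for height. The highest of the 10 sites, 7345 bp from Gm38564, scored 53.0 in the non-silencing, 15.6 in the untransduced and 19.4 in the null list. The others were nearest to Gins4, a replication helicase subunit (43.2), the potassium channel gene Kcnh1 (42.4), the Fc receptor gene Fcgr1 (40.5), Srrm3 (39.2), Chp1 (39.0), Hepacam2 (37.9), Arvcf (36.1, untransduced), Olfr161 (34.0) and Mkrn3 (33.7). Their Smchd1 scores ran from 2.42 at Gins4 and Arvcf to 8.92 at Mkrn3.

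Most sites lay away from promoters and marks. Wild-type H3K4me3 was within 1 kb of 113 of the 418 sites (27.03%, 22.83 to 31.56), against 36.9% of all Smchd1 summits, 42.9% of those without Ctcf (39.2 to 46.7) and 14.0% of non-silencing Ctcf summits. The start or end of a protein-coding gene was annotated within 2 kb of 96 (22.97%, 19.02 to 27.30), against 38.0% of all Smchd1 summits, 47.2% of those without Ctcf and 18.6% of Ctcf summits. On both measures the shared sites stood between the Ctcf summits and the Smchd1 summits without Ctcf.

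The share inside genes was lower in value than in each background. Inside protein-coding genes lay 129 of the 418 (30.9%, 26.5 to 35.5), against 46.0% of all Smchd1 summits, 55.2% of those without Ctcf (51.4 to 58.9) and 47.8% of the non-silencing Ctcf summits. Differences between these shares were not tested. The reference table gives gene ends but no exons, so exonic and intronic sites cannot be told apart. No sign of wild-type H3K4me3, wild-type H3K27me3 or MBD was listed within 1 kb of 273 sites (65.3%).

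**Figure D4:**
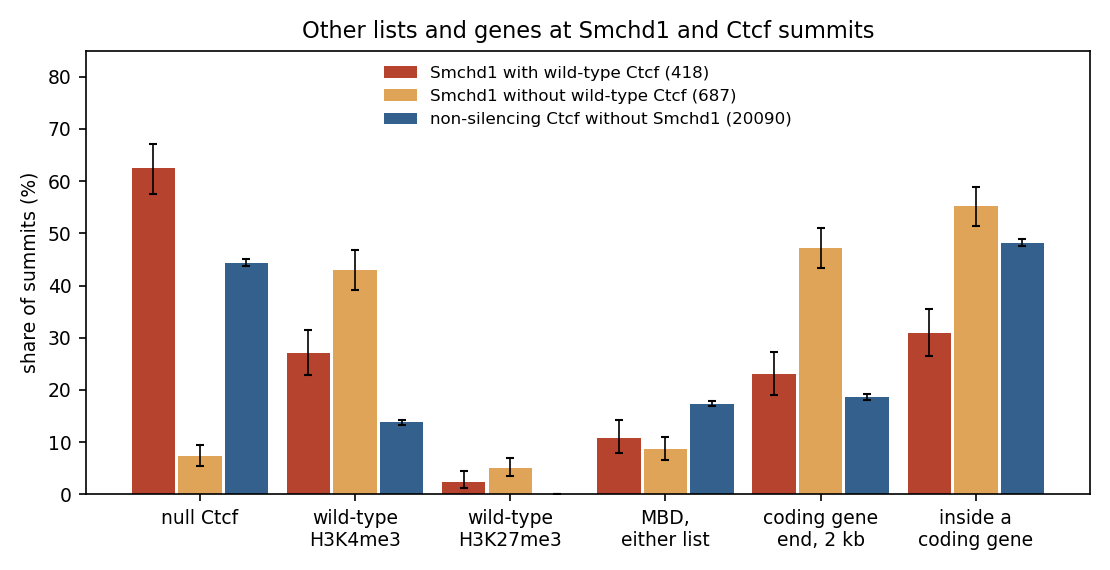
Share of summits (y, %) with null Ctcf, wild-type H3K4me3, wild-type H3K27me3 or MBD within 1 kb, with a coding gene end within 2 kb, or inside a coding gene, for 418 shared sites (red), 687 Smchd1 summits without wild-type Ctcf (orange) and 20090 non-silencing Ctcf summits without Smchd1 (blue), with exact 95% intervals. Red stands between orange and blue for H3K4me3 and gene ends and is the lowest bar for position inside a gene, at 30.9%.

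H3K4me3 at the sites was mostly listed in both genotypes. It was within 1 kb in both lists at 106 sites, in wild type alone at 7, in null cells alone at 10 and in neither at 295. Smchd1 summits with wild-type H3K4me3 and no Ctcf were much the same. Of these, 280 of 295 (94.9%) also had null H3K4me3, beside 106 of the 113 shared sites with wild-type H3K4me3. The median distance from the Smchd1 summit to the H3K4me3 summit was 181 bp over the 113 sites, farther than the 19 bp to Ctcf.

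Wild-type H3K27me3 was near few of the sites. It was within 1 kb of 10 sites (2.39%, 1.15 to 4.36), against 4.07% of all Smchd1 summits, 5.09% of those without Ctcf and 0.103% of non-silencing Ctcf summits. The sites included those at Hoxa9, Hoxa3, Hoxa5 (2 sites), Evx2, Onecut2 (2 sites), Tchh and Cbln1. All of these named genes but Tchh, a hair follicle protein, and Cbln1, a synapse organiser, encode homeobox transcription factors. Some of these sites share an H3K27me3 summit, namely the Onecut2 pair and the Hoxa5 pair, so the 10 are not independent. The null H3K27me3 list holds only 77 summits and had 0 within 1 kb of the 418 sites, which allows a share of up to 0.718% (3 counts of the total), and its length sets what it can show.

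Methylated DNA was captured near 45 sites (10.8%, 7.96 to 14.1) in at least 1 MBD list, against 9.41% of all Smchd1 summits and 17.2% of non-silencing Ctcf summits. The labels of the MBD samples conflict with the names of their lists. The lists are therefore called by their names and given no genotype direction. The list named for wild type reached 43 sites (10.3%), that named for null 31 (7.42%), and both 29. Over all 1105 Smchd1 summits the shares were 9.14% for the list named for wild type and 6.70% for that named for null. The list named for wild type is also longer (156188 summits against 126631). The order of the counts is thus not particular to the shared sites. MBD summits lay at a median of 628 bp from the Smchd1 summit. The highest sites with MBD, after Mid1 and Gm52481, included those nearest to Phf3, Zfp640, Ccr1, B020011L13Rik, Apob, Gm21190 and Zdhhc25, with Smchd1 scores of 6.63 to 9.18. At Apob, the gene of the lipoprotein apolipoprotein B, the MBD scores were 48.3 and 26.6.

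The Hox clusters, which hold the homeobox genes that pattern the body axis, held Smchd1 at each of their wild-type Ctcf summits. Within 20 kb of the listed Hox and Evx genes of the 4 clusters, 15 of 15 non-silencing Ctcf summits and 7 of 7 untransduced ones had Smchd1 within 1 kb, against 1.92% of all non-silencing summits. Being shared is what the rule used, so this is a description. The 18 shared sites there were a minority of the 58 Smchd1 summits in these clusters. Null Ctcf was within 1 kb of 6 of the 18, beside 62.4% of all 418 shared sites. The difference was not tested.

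In the HoxA cluster with Evx1 there were 8 shared sites among 21 Smchd1 summits. The site 1282 bp from Hoxa9 (chromosome 6, 52221815) had the highest score, 17.3, with Ctcf of 8.01 (untransduced), 10.6 (non-silencing) and 15.7 (null), H3K4me3 of 13.2 in both genotypes and H3K27me3 of 5.60. It was the only 1 of the 8 with null Ctcf. A site inside the Hoxa3 annotation at 52211724 scored 10.5, with wild-type Ctcf of 9.54 and 18.6 and no null Ctcf.

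The site 1727 bp from Hoxa13 (52257126) scored 10.1, with wild-type Ctcf of 3.81 and 9.23. The remaining sites were in the non-silencing list alone. They lay at Hoxa3 (52197466, Smchd1 7.54 and Ctcf 15.8), at Hoxa5 (52203725 and 52204653, 5.47 and 5.43, on a shared Ctcf summit of 8.99, whose promoter letters are printed above), 9831 bp from Hoxa13 (4.70) and 7430 bp from Evx1 (9.69). HoxA held 47 wild-type and 8 null H3K27me3 summits in this window, of 732 and 77 in the whole lists. It held 3, 7 and 1 Ctcf summits of the untransduced, non-silencing and null lists, of 8292, 20483 and 11920. As the lists differ in length, these counts do not show a change between genotypes.

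**Figure D5:**
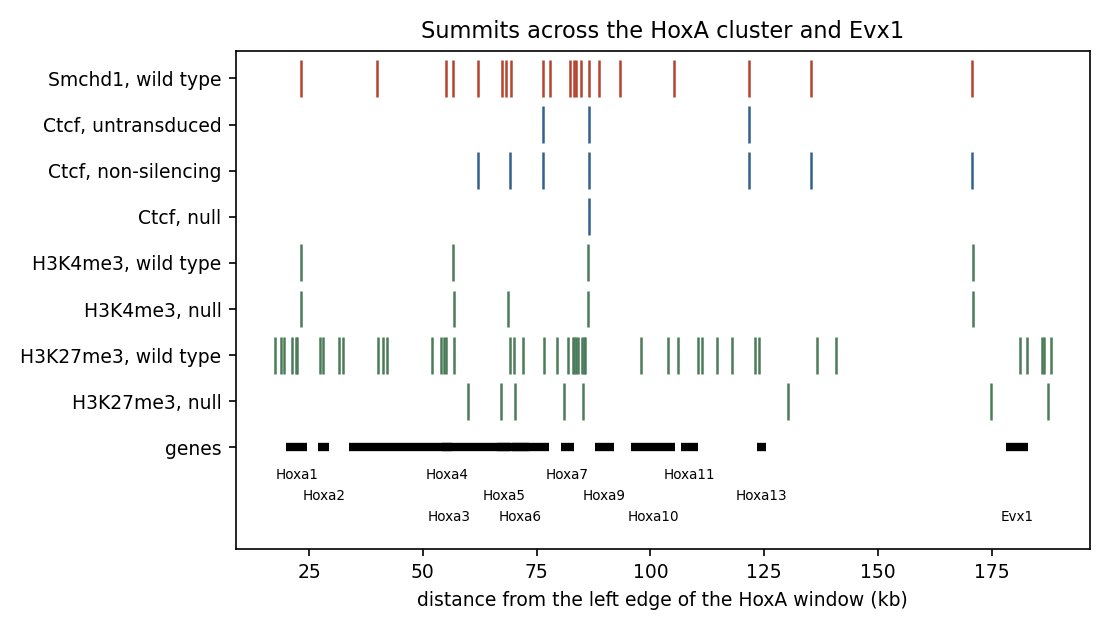
Positions of summits of 8 lists (rows) across the HoxA cluster and Evx1, in kb from the left edge of a window that reaches 20 kb beyond the listed genes, with genes as black bars. Each of the 7 non-silencing Ctcf summits stands under an Smchd1 summit, and the null Ctcf row holds 1 summit, beside Hoxa9.

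HoxD held 6 shared sites among 18 Smchd1 summits, and 4 of the 6 had null Ctcf. The highest was inside Hoxd3 (chromosome 2, 74715939, Smchd1 16.9, non-silencing Ctcf 7.52, null Ctcf 11.9), with a lower second summit of 3.56 beside it at 74715186. Evx2 had a site at 74662002 (5.31) with H3K27me3 (4.54) and no null Ctcf and another at 74663741 (7.54) with null Ctcf (9.46). The site near Hoxd8 (74702416, 9.36) had wild-type Ctcf of 12.999 and 9.23 and no null Ctcf, and that near Hoxd13 (74673161, 9.25) had null Ctcf of 7.13.

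HoxB and HoxC had 2 shared sites each within 20 kb, of 9 and 10 Smchd1 summits. Both HoxB sites lay at Hoxb8 on a single Ctcf summit (7.89 untransduced, 10.9 non-silencing) without null Ctcf. In HoxC, the Hoxc8 site (chromosome 15, 102987607) scored 13.5 with non-silencing Ctcf of 16.0 and no null Ctcf, and the Hoxc10 site (102966544, 4.70) had Ctcf of 8.23 and 7.23 and null Ctcf of 14.4. Beyond 20 kb from the listed HoxB genes, a site 30902 bp from Hoxb9 scored 13.5 with wild-type Ctcf of 11.5 and 7.52, and a site at 36221 bp scored 7.90 with null Ctcf of 14.6.

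Other developmental transcription factors had shared sites too. Within 20 kb of the 101 listed genes there were 17 shared sites, near 15 genes, and 9 of the 17 had null Ctcf. Of the non-silencing Ctcf summits in these windows, 18 of 100 had Smchd1 within 1 kb, and of the untransduced 5 of 35, beside 1.92% and 2.36% over the whole lists. The 15 genes included Snai2, Nkx6-1, Tbx3, Six2, Six3, Cdx2, Gata3, Gata4, En1, Lhx5, Nkx2-1, Pax2, Pax9 and Isl1. The site inside Six2, a regulator of kidney progenitors, scored 11.3 with wild-type Ctcf of 7.11 and 17.8 and null Ctcf of 9.31. Cdx2, which specifies trophectoderm and gut, had 3 sites with Smchd1 scores of 3.56 to 7.90.

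Shared sites also lay at clusters known for Smchd1. Clustered protocadherins are cell adhesion genes whose promoter choice is set by Ctcf. Within 20 kb of the listed ones there were 2 shared sites among 3 Smchd1 summits. In these windows 2 of the 11 non-silencing Ctcf summits had Smchd1 (1.92% over all non-silencing summits). The 2 shared sites lay inside the annotations of Pcdha11 (Smchd1 3.23, Ctcf 4.19, null Ctcf 6.03) and Pcdha12 (5.85, with Ctcf of 12.999 and 28.2 and null Ctcf of 11.4), whose models overlap, as alpha protocadherins share their last exons. The Pcdha11 site, at 37020196, lay just before the first base of the Pcdha12 annotation (37020230). The Pcdha12 site, at 37089973, lay just before the first base of the Pcdhac1 annotation (37090136). Beyond 20 kb from the listed protocadherins, 2 sites lay inside the Gm38667 annotation on chromosome 18 (37218384 and 37217488). They scored 9.93 and 3.46 for Smchd1, each with non-silencing Ctcf of 7.38 and null Ctcf of 5.55. The imprinted Snrpn cluster had 2 sites within 20 kb of its listed genes, among 8 Smchd1 summits, and 2 of the 7 non-silencing Ctcf summits there had Smchd1. They were inside Snrpn and Snhg14 (Smchd1 9.18, Ctcf 9.76, null Ctcf 11.9) and 17227 bp from Mkrn3 (8.92, Ctcf of 7.53 and 33.7, null Ctcf 23.1).

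Of the other imprinted genes, only Kcnk9, a potassium channel gene, had a shared site (Smchd1 11.6, non-silencing Ctcf 26.3, null Ctcf 16.2), and 1 of 47 non-silencing Ctcf summits near these genes had Smchd1. The 38 listed neuronal signalling genes had 6 shared sites, at Caln1, Nrxn3 (2 sites), Kcnk9, Rbfox3 and Slc17a6, and 6 of their 92 non-silencing Ctcf summits had Smchd1. Nrxn3 encodes a presynaptic adhesion protein and Slc17a6 a vesicular glutamate transporter. No shared site was found near (20 kb) the listed genes of Ctcf, cohesin and Smchd1 partners (0 of 27 non-silencing Ctcf summits), neural stem cell markers (0 of 28) or housekeeping genes (0 of 25). With 1.92% over all non-silencing summits, counts of this size cannot show that these lists differ from the background.

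Shared sites mostly stood alone. Joined where up to 50 kb apart, the 418 sites formed 343 stretches, of which 291 held 1 site, 40 held 2 and 12 held 3 or more (47 sites). The 12 were the HoxA, HoxB and HoxD stretches, those at Tfap2d and Tfap2b, Nkx2-9 and Pax9, Cdx2 and Urad, and Nr2f2, and those near Dsel, Nmur2, Slc24a3, Tchh and Tchhl1, and the Gm21190 to Speer4d region. Of these genes, Tfap2b, Nkx2-9, Pax9, Cdx2 and Nr2f2 encode transcription factors. Null Ctcf was at 3 of 3 sites near Dsel and near Slc24a3, and at 1 of 8 in HoxA.

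The Gm21190 to Speer4d stretch on chromosome 5 (15507214 to 15645881) held 5 sites with Smchd1 scores of 2.65 to 7.61. Its genes are near-identical copies, so reads there may be placed on the wrong copy. By chromosome, the most sites were on 7 (43 of 99 Smchd1 summits), 5 (41 of 100) and 11 (34 of 80). The shared part was lowest on 9 (7 of 33, 21.2%, 8.98 to 38.9). X had 5 of 9 and Y 3 of 5 in these male cells, which have no inactive X.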

How the data were processed

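Smchd1, Ctcf, H3K4me3 and H3K27me3 ChIP and MBD capture were sequenced in 28 libraries. Per the submitters' processing notes, CASAVA 1.4 called bases, MACS2 (version 2) called peaks and positions are on mm10, while the sources used here name no aligner. The 11 deposited lists hold 1-base summits with a score that is the authors' −log10 of p or of q. Per the labels, each list pools its group's libraries, so a summit can be missing because of depth, which is unknown here.

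Nearest summits were found with pandas 2.3.3, scipy 1.17.1 and numpy 2.4.6 under Python 3.11.15, and plots were drawn by matplotlib 3.10.9. Summits within 1 kb counted as shared; contigs were left out. Genes were taken from RefSeq (GRCm38.p6, 21883 protein-coding). On simulated data, nearest summits were right in 100 of 100 cases and planted motifs in 100 of 100. The planned motif search around summits was replaced by promoter windows, since no genome was used; start sites on some chromosomes are not in that table. Named genes were those nearest to the 20 highest sites, to the 10 highest without null Ctcf, by Ctcf score and with MBD, all with H3K27me3, listed genes within 20 kb of a site, and stretches of 3 or more sites; some of these are not reported here. The sequences shown, and further sites of the Hox clusters, were picked with their values in view. The members and lists were chosen with earlier results of these data known.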

Additional observations from a re-analysis of the deposited data

How the results depend on the processing

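The number of shared sites was 179 with the Smchd1 list called at 5e-4, 187 with Ctcf in both wild-type lists, 241 with a Ctcf score of at least 10 and 202 with the untransduced list alone (this last, and the mismatch setting, were chosen after seeing the data). The share with null Ctcf under these was 68.2%, 79.7%, 72.6% and 78.2%. With sharing at 250 bp and at 5 kb, wild-type H3K4me3 was at 15.9% and 37.8% of sites, H3K27me3 at 0.513% and 11.5%, and MBD at 1.54% and 36.7%. In the 5e-4 list H3K4me3 was at 31.8% and H3K27me3 at 5.03%, and with Ctcf in both lists H3K27me3 was at 1.07%. Coding gene ends were at 30.3% with sharing at 5 kb and at 36.1% with gene ends within 5 kb, the median distance to Ctcf was 29 bp at 5 kb, and the core motif stood in 76.5% of windows with 1 mismatch. A wider distance takes in more summits by construction; the other causes were not tested. The other 44 of 65 alternative values moved by less than the interval of the main value or 1.5 times. Null Ctcf was more frequent at wild-type Ctcf summits with Smchd1 than without under all 5 settings run in both lists. No paired analysis was possible because the lists pool their libraries, and for the same reason no library could be left out. The planned windows around summits for the motif search were not run.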

Other observations

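For several sites the nearest coding gene, at any distance, belonged to a tandem family that was in no list made for this work. They were picked out with their values in view, and no share over all summits was computed for these families. Olfactory receptor genes were nearest to 6 sites, at Olfr94 (Smchd1 score 12.2), Olfr459 (10.1), Olfr161 (6.19, 469390 bp away), Olfr649 (5.53), Olfr1349 (4.43) and Olfr1009 (3.56), and 4 of the 6 had null Ctcf within 1 kb. Vomeronasal receptor genes were nearest to 2 sites, at Vmn1r234 (4.15) and Vmn2r76 (3.76), and serpin genes to 2, at Serpinb2 (10.1) and Serpina6 (6.17). Keratin and keratin-associated genes were nearest to 4, at Krtap1-5 (9.02), Krt78 (5.18 and 3.57) and Krt23 (4.43). Of the 14 sites, 11 had null Ctcf, beside 62.4% of all 418 shared sites. On unplaced contigs, which stand outside all counts above, 3 of 8 Smchd1 summits lay within 1 kb of wild-type Ctcf.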
